A study of Mus musculus with 9 samples.

Results

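The genes described here are 34 enzymes, transporters and regulators of glycolysis and of the cellular response to low oxygen, with mRNA levels from sequencing of 9 KPC mouse pancreatic tumors taken whole. They were chosen by symbol from a list of 35 names, in which Ca9 and Car9 stand for the same gene, and all 34 were found among the 54453 rows of the deposited table and passed the filter on low counts, beside 16169 genes in all. Of the members 22 belong to glycolysis and its immediate borders and 12 to the hypoxia response. The series set 5 tumors labelled Scrib null (genotype KPF/+CSF/F; tumors 7, 14, 15, 18 and 23) against 4 labelled Scrib WT (genotype KPF/+C; tumors 2, 3, 6 and 9), so both groups carry KPF/+C and the null group carries SF/F in addition. KPC is the usual name for a mouse model of pancreatic ductal cancer that uses a Cre recombinase. The labels do not spell out the letters of the genotypes, the promoter of the Cre, or the age or sex of the mice. Whether every tumor had its own mouse is not stated, so 5 and 4 tumors may stand for fewer mice. The p-values take the tumors as independent and could then be too small. Scrib encodes a scaffold protein of epithelial polarity.

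Glycolysis turns glucose into pyruvate through a chain of cytosolic enzymes and yields ATP without oxygen. Glucose enters through carriers of the Slc2a family, is trapped by hexokinases, committed by phosphofructokinase, split by aldolase, and ends as pyruvate, which lactate dehydrogenase turns into lactate for export. In low oxygen the prolyl hydroxylases of the Egln family stop marking the alpha subunits of hypoxia-inducible factor (HIF) for destruction, and HIF then binds short DNA letters near many of these enzyme genes and near genes of vessel growth, pH control and mitophagy. HIF alpha is controlled mainly at the protein level, so its mRNA is no measure of its activity. Pancreatic ductal tumors are known for a dense stroma, poor perfusion and a strong use of glucose.

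Each tumor had 10145723 to 27596587 estimated counts. Scrib mRNA, the check of the labels, was 102, 53.8, 55.4, 53.2 and 36.9 CPM, which is counts per 1000000, in null tumors 7, 14, 15, 18 and 23, against 88.5, 44.1, 62.0 and 87.4 CPM in WT tumors 2, 3, 6 and 9. Scrib in null over WT differed by -0.23 in log2 (SE 0.31, edgeR adjusted p = 0.712), so the total mRNA did not separate the groups and every direction here is between tumors as labelled. A whole-gene level need not show the loss of single exons, which were not analysed here. Tumors null 7 and WT 3 were the extreme tumors on the leading pair of principal components (29.6% and 26.4% of variance). All 10 epithelial markers, among them Epcam and Krt8, passed the filter, and their summed level was 7387 to 13987 CPM in the null and 8676 to 12448 CPM in the WT tumors. Other cells were present too. Summed macrophage markers were 675 to 2130.2 CPM in the null and 1921 to 3800.4 CPM in the WT tumors, fibroblast markers 355 to 4614 CPM in the null and 2131 to 9557 CPM in the WT tumors and endothelial markers 63.2 to 309 CPM in the null and 314 to 606 CPM in the WT tumors, and all 10, 10 and 11 genes of these lists had negative log2 fold changes. In whole tumors, fewer cells of a type and less RNA per cell cannot be told apart.

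No member passed the test. Of 34 members 0 were called in either direction by edgeR (quasi-likelihood fit over all genes, with a Benjamini-Hochberg adjusted p below 0.05), where 0.0% of all genes were called higher and 0.0124% lower in the null tumors. The adjusted p of the members ranged from 0.204 to 0.985. At an unadjusted p under 0.05, 3 members were higher in the null tumors, Hk2, Gapdh and Hk1, which is 3 of 34 beside 7.64% of all genes, and 0 were lower beside 10.0% of all genes. The null and WT values did not overlap for 1 member, Hk2, higher in the null tumors, beside 3.42% of all genes in that direction, and for 0 members in the other, beside 3.49%. DESeq2 called 1 member higher, again Hk2, where it called 1.25% of all genes higher, and 0 lower, where it called 2.35%. Limma-voom called 0 members in either direction and 0.00618% of all genes in each. A count of 1 or 3 of 34 is near these backgrounds and is no result about the members as a list.

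Glycolysis and hypoxia members leaned to opposite sides. In the glycolysis set 15 of 22 log2 fold changes were positive, with a median of 0.31. In the hypoxia set 4 of 12 were positive, with a median of -0.38, and over all genes tested 47.8% were positive with a median of -0.03. The contrast depended on a single tumor. Without WT 3 the medians were 0.50 for glycolysis, 0.20 for hypoxia and 0.02 for all genes, so the hypoxia median changed sign. Among tumors with TB19 identifiers (null 7, 14 and 15 and WT 2) the medians were 0.45 and 0.41, and among those with later identifiers 0.24 and -0.01. The plot of each member relative to its mean over tumors shows WT 3 as the tumor with the deepest red among the hypoxia genes and WT 6 as mostly blue.

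**Figure D1:**
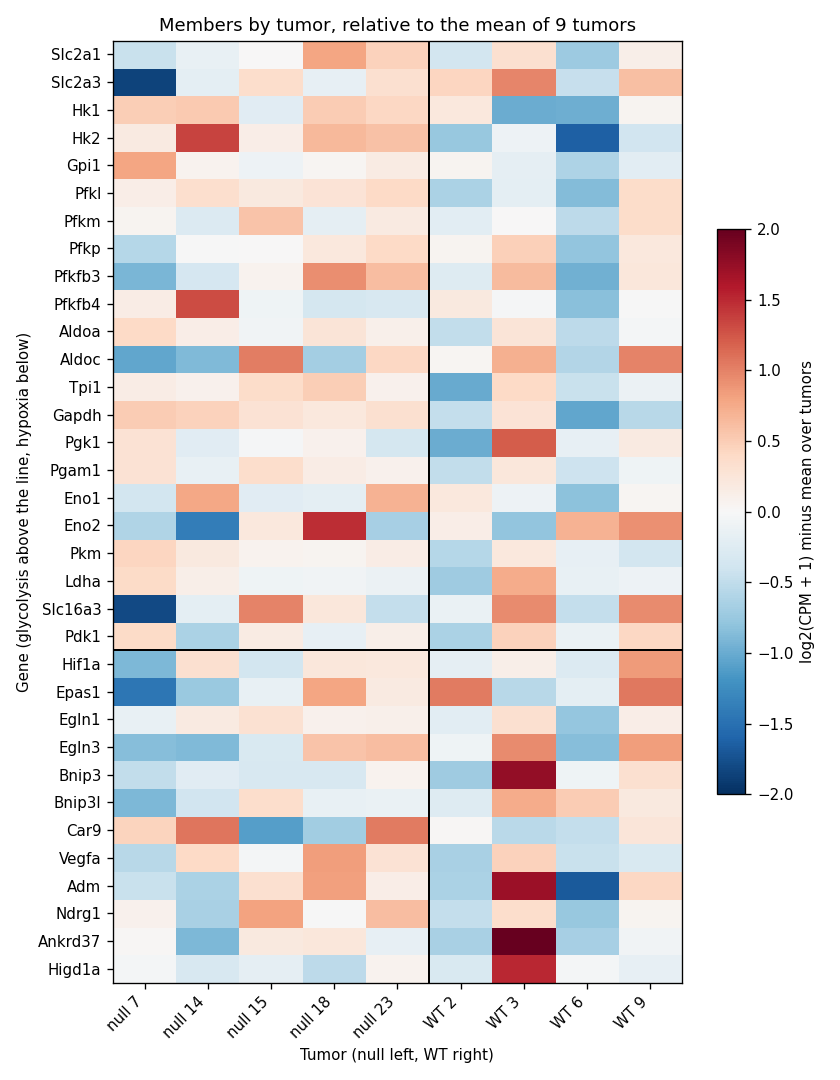
Each row is a member and each column a tumor, with the 5 null tumors on the left and the 4 WT tumors on the right; color is log2(CPM + 1) minus the gene's mean over the 9 tumors, and the black line parts the 22 glycolysis genes from the 12 hypoxia genes. WT 3 was the highest tumor for 12 of 34 members and WT 6 the lowest for 14 of 34.

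Across tumors, the mean log2(CPM + 1) of the 22 glycolysis members was 7.46, 7.64, 7.78, 7.81 and 7.76 in null tumors 7, 14, 15, 18 and 23, against 7.31, 7.84, 7.02 and 7.76 in WT tumors 2, 3, 6 and 9. WT 6 and WT 2 were the lowest of all, WT 3 was the highest, and WT 9 lay inside the null range. WT 6 was the lowest tumor for 11 of 22 glycolysis members, beside 7.51% of all genes tested. The mean of the 12 hypoxia members was 5.99, 6.19, 6.38, 6.58 and 6.67 in the null tumors, against 6.17, 7.16, 5.95 and 6.72 in the WT tumors. Here WT 3 stood above the other 8 tumors and the groups overlapped widely.

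Glucose carriers and hexokinases were the entry steps. Hk2 encodes the hexokinase that tumors commonly induce and that can sit on the outer mitochondrial membrane (ENSMUSG00000000628; chromosome 6, 82725025 to 82774454, GRCm38). It was 178, 403, 173, 249 and 238 CPM in the null tumors, against 92.8, 147, 50.5 and 120.5 CPM in the WT tumors; throughout, values are listed in the order of tumor number given above. All 5 null tumors lay above all 4 WT tumors, with null 15 the lowest of the null and WT 3 the highest of the WT tumors. The group means were 248 ± 93.0 CPM in the null and 103 ± 41.3 CPM in the WT tumors (SD, n = 5 and 4). The log2 fold change was 1.27 (SE 0.36, 95% interval 0.49 to 2.06), or 2.42-fold, with an unadjusted p of 0.00462 and an edgeR adjusted p of 0.204, so it did not pass. DESeq2 gave Hk2 an adjusted p of 0.0434. With each tumor left out in turn, the log2 fold change stayed between 1.03 and 1.54. By the identifiers in the labels, it was 1.49 among tumors whose identifier starts with TB19 (null 7, 14 and 15 and WT 2) and 1.19 among those with later identifiers.

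Because Hk2 was the member with the smallest p, its promoter is shown. The window, from RefSeq on GRCm38.p6, covers 250 bases before to 50 after the annotated start on the minus strand (chr6:82774405-82774704), and is printed 5′ to 3′ along the gene. Capitals mark the core letters of the HIF site, ACGTG or GCGTG, on either strand, where CACGT and CACGC are their reverse complements.
Hk2: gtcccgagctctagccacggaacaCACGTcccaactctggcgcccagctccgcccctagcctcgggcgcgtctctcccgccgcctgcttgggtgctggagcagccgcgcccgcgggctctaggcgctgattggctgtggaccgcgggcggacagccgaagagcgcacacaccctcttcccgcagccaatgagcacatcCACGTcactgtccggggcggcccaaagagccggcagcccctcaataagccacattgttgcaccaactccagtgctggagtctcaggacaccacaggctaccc
The Hk2 window held 2 such places, and neither holds the palindrome CACGTG that basic helix-loop-helix factors such as Myc also bind. A match is a description of letters and not a shown binding site.

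Hk1, the broadly expressed hexokinase (ENSMUSG00000037012; chromosome 10, 62268855 to 62379908), was 199, 203, 121, 202 and 188 CPM in the null tumors, against 165, 71.0, 71.3 and 147 CPM in the WT tumors. Null 15 fell among the WT values and WT 3 and WT 6 were well below all others. For Hk1 the log2 fold change was 0.69 (SE 0.31, edgeR adjusted p = 0.28). It was 0.13 among tumors with TB19 identifiers (null 7, 14 and 15 and WT 2) and 1.03 among those with later identifiers. Per kilobase of exon, Hk2 made up 65.1% ± 6.40 in the null and 55.9% ± 13.2 in the WT tumors of the summed level of both hexokinases (SD, n = 5 and 4). The lowest share was in WT 2 and the highest in WT 3, so the ranges overlapped. Without the length correction the shares were 56.7% in the null and 47.5% in the WT tumors, so the order of Hk1 and Hk2 in WT depended on it. The carriers were dominated by Slc2a1, which encodes the broadly used GLUT1, at 295 ± 102 CPM in the null and 238 ± 74.8 CPM in the WT tumors, with a log2 fold change of 0.31 and an edgeR adjusted p of 0.601. Slc2a3, which encodes the high-affinity carrier GLUT3 of neurons and leukocytes, was at most 13.2 CPM (log2 fold change -0.69, edgeR adjusted p = 0.505), and its log2 fold change was -0.41 without null 7 and -0.41 without WT 3. Leaving out 1 tumor, Slc2a1 ran from 0.12 without null 18 to 0.53 without WT 3. Null 7, which also had the lowest summed macrophage and neutrophil markers, held 1.01 CPM of Slc2a3, and the part of other cells in this value was not tested.

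Phosphofructokinase commits sugar to glycolysis, and its subunits were unequal. Gpi1, the isomerase before it (ENSMUSG00000036427; chromosome 7, 34201330 to 34230336), was 949, 581, 515, 564 and 616 CPM in the null tumors, against 569.8, 486, 361 and 475 CPM in the WT tumors. Null 7 was far above the rest, and the other null tumors overlapped WT 2. In log2 terms Gpi1 differed by 0.45 (SE 0.25, edgeR adjusted p = 0.362), and 0.28 without null 7. Pfkl, the liver-type subunit (ENSMUSG00000020277; chromosome 10, 77986947 to 78010083), was 270.0, 312, 281, 299 and 324 CPM in the null tumors, against 159, 214, 134 and 319 CPM in the WT tumors. The null tumors were tightly grouped, and WT 9 was as high as they were while the other WT tumors were lower. For Pfkl the log2 fold change was 0.52 (SE 0.26, edgeR adjusted p = 0.319). Pfkl took 74.6% ± 3.27 in the null and 67.6% ± 4.09 in the WT tumors of the per-kilobase level of the 3 subunits (SD, n = 5 and 4), where the null range of 69.7% to 78.2% overlapped the WT range of 63.7% to 72.8%. The muscle-type Pfkm had a log2 fold change of 0.16 and the platelet-type Pfkp -0.01 (edgeR adjusted p = 0.753 and 0.984). Pfkp shares a stretch of identical sequence with the overlapping gene Pitrm1, so reads there could be split between both. Pfkfb3 and Pfkfb4, which set the level of the activator fructose 2,6-bisphosphate, had log2 fold changes of 0.19 and 0.43 (edgeR adjusted p = 0.82 and 0.566). With 1 tumor left out Pfkl reached 0.82 without WT 9, Pfkm ran from 0.01 without null 15 to 0.35 without WT 9, Pfkp from -0.22 without WT 6 to 0.20 without WT 3, Pfkfb3 from -0.07 without null 18 to 0.52 without WT 3 and Pfkfb4 from -0.02 without null 14 to 0.56 without WT 2. Pfkfb4 was 57.8 CPM in null 14, against at most 25.3 CPM in the other null tumors and 26.2 CPM in the WT tumors.

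**Figure D2:**
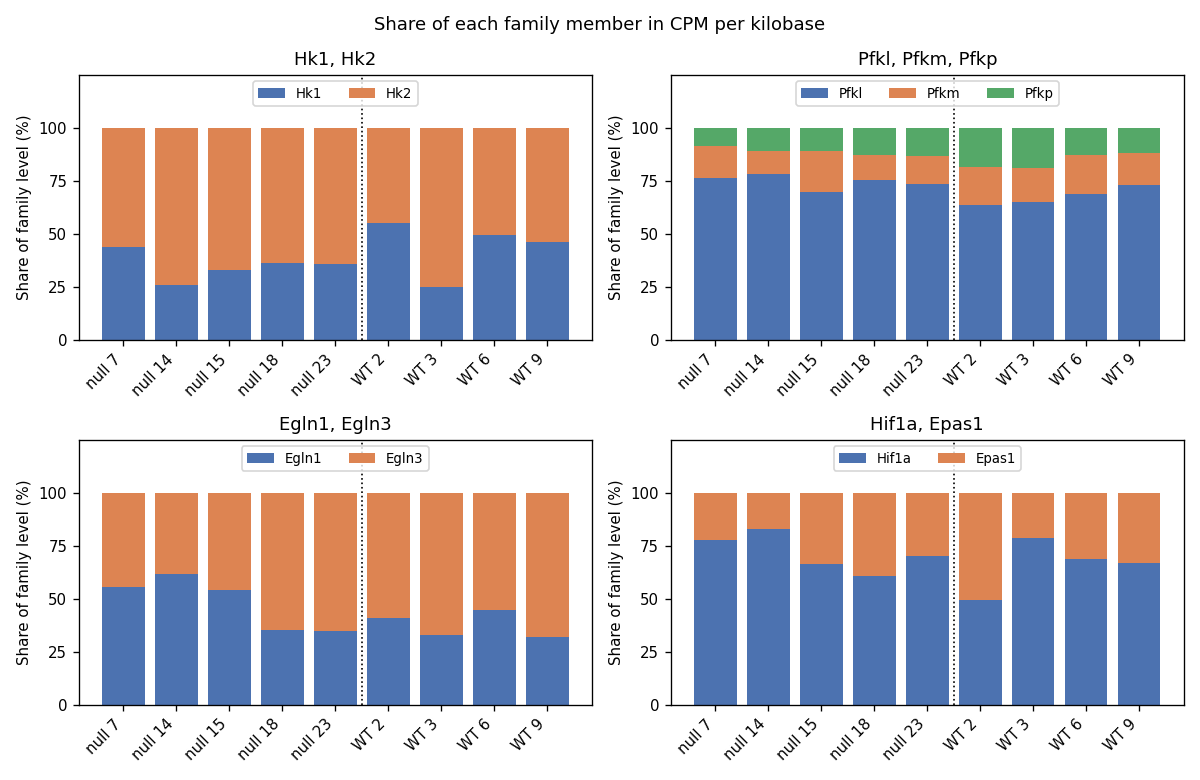
Stacked bars give, for each tumor, the share in percent of each gene in the summed CPM per kilobase of its family, with the 5 null tumors left of the dotted line and the 4 WT tumors right of it. Hk2 held 56.2% to 73.9% of the hexokinase level in null tumors and 44.6% to 74.8% in WT tumors, and Pfkl was the main subunit in every tumor.

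From aldolase to pyruvate kinase the chain was the most abundant part of the set. Per kilobase of exon, Gapdh was 1114 CPM per kilobase in the null and 671 in the WT tumors, followed by Aldoa, at 555 CPM per kilobase in the null and 438 in the WT tumors. Pkm, Ldha, Tpi1, Pgk1, Pgam1 and Eno1 lay between 229 and 473 CPM per kilobase in the null and between 181 and 418 in the WT tumors. These per-kilobase levels use every annotated exon of a gene, so genes with long, rarely used exons are understated. Aldoa, the main aldolase, had a log2 fold change of 0.34 and Aldoc, the brain type, -0.41 (edgeR adjusted p = 0.483 and 0.666). With 1 tumor left out, Aldoa ran from 0.24 to 0.55, highest without WT 3, and Aldoc from -0.86 without null 15 to -0.14 without WT 9.

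Tpi1, the triose isomerase (ENSMUSG00000023456; chromosome 6, 124810586 to 124814296), was 1012, 977, 1178, 1296 and 974 CPM in the null tumors, against 454, 1207, 675 and 844 CPM in the WT tumors. WT 3 reached the null range while WT 2, WT 6 and WT 9 were below every null tumor. In log2 terms Tpi1 differed by 0.45 (SE 0.30, edgeR adjusted p = 0.423), and by 0.26 to 0.77 with 1 tumor left out, highest without WT 3. Gapdh oxidises the triose phosphate (ENSMUSG00000057666; chromosome 6, 125161715 to 125166467). It was 5072, 4958, 4392, 4151 and 4457 CPM in the null tumors, against 2582, 4314, 1742 and 2449 CPM in the WT tumors. Again WT 3 lay within the null range, above null 18, and the other WT tumors were lower. For Gapdh the log2 fold change was 0.73 (SE 0.31, unadjusted p = 0.036, edgeR adjusted p = 0.259), and 1.07 without WT 3 (edgeR adjusted p = 0.327). Its range with 1 tumor left out was 0.56 to 1.07.

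Gapdh and Eno1 have near-identical copies in the genome, and Salmon shares reads among them. The 70 Gapdh copies, mostly processed pseudogenes, took up to 34.3% of the summed level, most in null 18, WT 6 and WT 9. With the copies added, Gapdh was 5410.1, 5267, 4692, 6256 and 4928 CPM in the null tumors, against 2743, 4463, 2568 and 3727 CPM in the WT tumors, and the groups did not overlap. The log2 fold change of the sum was 0.66 (SE 0.28, edgeR adjusted p = 0.263). Eno1, the main enolase (chromosome 4, 150236721 to 150248879), alone was 818, 1806, 907, 921 and 1712 CPM in the null tumors, against 1227, 980.5, 602 and 1082 CPM in the WT tumors. Null 14 and null 23 were well above the other null tumors. The copy Eno1b ran the other way within the null group, at 435, 100.3, 592, 803 and 0.918 CPM in the null tumors and 6.59, 0.258, 148 and 204 CPM in the WT tumors. Summed with its 3 copies, Eno1 was 1271, 1912, 1524, 1766 and 1716 CPM in the null tumors, against 1237, 981, 755 and 1302 CPM in the WT tumors. The sum was more even within the null group, and only null 7 overlapped the WT range. Its log2 fold change was 0.62 (SE 0.26, unadjusted p = 0.0348, edgeR adjusted p = 0.258), against 0.34 for Eno1 alone (edgeR adjusted p = 0.597). Eno1 alone ran from 0.16 without null 14 to 0.48 without WT 2 with 1 tumor left out.

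Pkm, the pyruvate kinase of most tissues other than liver (ENSMUSG00000032294; chromosome 9, 59656368 to 59679375), was 2796, 2372, 2193, 2155 and 2315 CPM in the null tumors, against 1398, 2403, 1858 and 1609.6 CPM in the WT tumors. The null tumors were all above WT 2, WT 6 and WT 9, and WT 3 fell among them. In log2 terms Pkm differed by 0.38 (SE 0.25, edgeR adjusted p = 0.426), and by 0.28 to 0.58 with 1 tumor left out, highest without WT 3. The deposited values are per gene and do not tell the M1 from the M2 splice form. Pgam1, the phosphoglycerate mutase, was at 613 ± 80.5 CPM in the null and 491 ± 116 CPM in the WT tumors. Its log2 fold change was 0.32 (edgeR adjusted p = 0.468), or 0.23 to 0.52 with 1 tumor left out, highest without WT 3. Eno2, the neuronal enolase, was at most 16.0 CPM in any tumor.

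Pgk1, which makes the first ATP of the chain, was another member with its highest level in WT 3. It was 942, 663, 761, 819.8 and 609.5 CPM in the null tumors, against 389, 1796, 689.5 and 876 CPM in the WT tumors, and WT 3 held 2.48 times the median of the other 8 tumors while WT 2 was the lowest. Its log2 fold change was -0.30 (edgeR adjusted p = 0.687), and 0.26 without WT 3. Downstream of pyruvate, Ldha, the lactate dehydrogenase subunit that favors lactate, was 1318 ± 199.8 CPM in the null and 1305 ± 577 CPM in the WT tumors, with 2124 CPM in WT 3. Its log2 fold change was 0.01, and its sign depended on the scaling. Slc16a3, the lactate exporter MCT4, had a log2 fold change of -0.45, and Pdk1, the kinase that keeps pyruvate from the mitochondrion, -0.08 (edgeR adjusted p = 0.642 and 0.9). Slc16a3 was -0.19 without WT 3, -0.20 without null 7 and -0.85 without null 15, and WT 3 held 2.17 times the median CPM of the other 8 tumors. Without WT 3, Ldha was 0.39 and Pdk1 0.11. Slc16a3 ranged from 39.1 CPM in null 7 to 278 CPM in null 15, a wider range than in the WT tumors, which held 99.6 to 270.4 CPM.

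**Figure D3:**
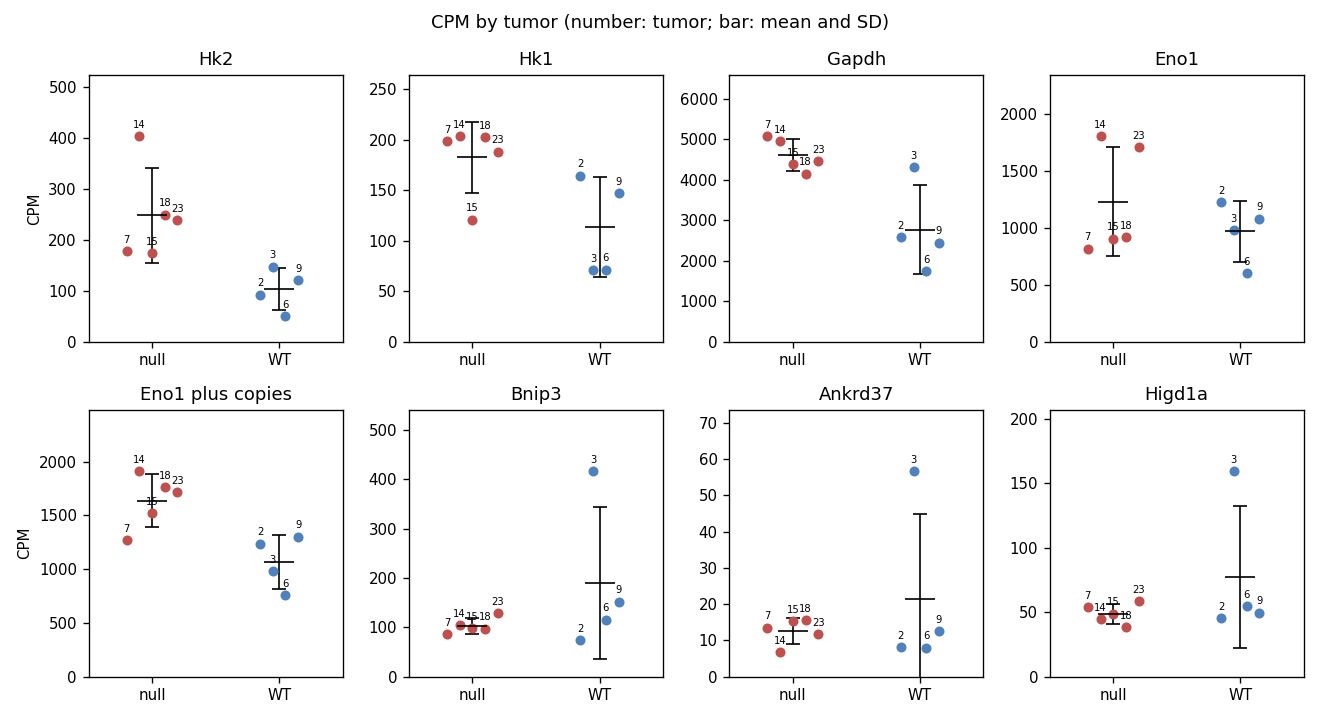
CPM per tumor, on an axis from 0, for Hk2, Hk1, Gapdh, Eno1, Eno1 plus its near-identical copies, Bnip3, Ankrd37 and Higd1a; red points are the 5 null tumors (left), blue points the 4 WT tumors (right), numbers give the tumor, and bars show mean and SD (the lower bar of Ankrd37 in WT ends outside the axis). Hk2 shows no overlap between groups, and Bnip3, Ankrd37 and Higd1a show a single WT point, tumor 3, at 417, 56.7 and 159 CPM.

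The HIF alpha subunits did not separate the groups. Hif1a encodes the alpha subunit found in most cells (ENSMUSG00000021109; chromosome 12, 73901375 to 73947530). It was 59.5, 139, 86.2, 130.5 and 129 CPM in the null tumors, against 98.3, 121, 92.7 and 202 CPM in the WT tumors. Null 7 was the lowest and WT 9 the highest, with full overlap otherwise, and the log2 fold change was -0.24 (SE 0.32, 95% interval -0.94 to 0.46, edgeR adjusted p = 0.697), or -0.07 without null 7 and 0.07 without WT 9. Epas1 encodes HIF-2 alpha, which is strong in endothelium and macrophages (ENSMUSG00000024140; chromosome 17, 86753700 to 86833410). It was 16.2, 27.1, 41.0, 80.0 and 51.9 CPM in the null tumors, against 95.6, 30.8, 40.1 and 96.2 CPM in the WT tumors. WT 2 and WT 9 were the highest and null 7 the lowest. The log2 fold change was -0.60 (SE 0.48, 95% interval -1.66 to 0.45, edgeR adjusted p = 0.51), and -0.36 without null 7. With 1 tumor left out it ran from -0.95 without null 18 to -0.36 without WT 9. Summed endothelial markers were 63.2, 309, 223, 252 and 301 CPM in the null tumors, against 314, 476, 369 and 606 CPM in the WT tumors. They shared their lowest tumor, null 7, and their highest, WT 9, with Epas1. WT 3 had the next highest sum and a low Epas1 level, and WT 2 a sum close to that of null 14 and far more Epas1. Macrophage markers summed to 675, 1654, 1439, 1196 and 2130.2 CPM in the null tumors, against 3619, 2921, 1921 and 3800.4 CPM in the WT tumors. The part of either cell type in the Epas1 level was not tested. Hif1a made up 71.6% ± 8.82 in the null and 65.9% ± 12.2 in the WT tumors of the per-kilobase level of both subunits (SD, n = 5 and 4).

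Of the oxygen-sensing hydroxylases, Egln1, the main regulator of HIF-1 alpha, was 115 ± 13.0 CPM in the null and 101 ± 31.0 CPM in the WT tumors, with a log2 fold change of 0.19 and an edgeR adjusted p of 0.669. Egln3, which is itself induced by HIF, was 101 ± 50.9 CPM in the null and 134 ± 68.6 CPM in the WT tumors, with a log2 fold change of -0.41 and an edgeR adjusted p of 0.63. WT 3 was the highest tumor for Egln3, at 199.7 CPM or 2.22 times the median of the other 8, and Egln3 differed by -0.11 in log2 without WT 3. Leaving out 1 tumor, Egln3 ran from -0.66 without WT 6 to -0.11 without WT 3, and Egln1 from 0.02 without WT 6 to 0.40 without WT 3. Egln1 made up 48.3% ± 12.3 in the null and 37.7% ± 6.20 in the WT tumors of the per-kilobase level of both (SD, n = 5 and 4). Within the null group, tumors 7, 14 and 15, with TB19 identifiers, had more Egln1 than Egln3 per kilobase. Tumors 18 and 23, with later identifiers, had less, as did every WT tumor. WT 2, also with a TB19 identifier, had an Egln1 share of 41.0%, and the part of the identifier range was not tested. Without the length correction WT 6 had more Egln1 than Egln3, at 52.2% and 47.8%, and the other tumors kept their order.

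Of the HIF targets outside glycolysis, several were far higher in WT 3 than in any other tumor. Bnip3, a mitophagy receptor on the outer mitochondrial membrane (ENSMUSG00000078566; chromosome 7, 138890836 to 138909519), was 86.4, 104, 97.7, 97.0 and 128 CPM in the null tumors, against 74.1, 417, 115 and 152 CPM in the WT tumors. WT 3 stood far above all others, and the other WT tumors overlapped the null range. The log2 fold change was -0.88 (SE 0.43, edgeR adjusted p = 0.304), and -0.11 without WT 3. Bnip3 shares a stretch of 98.3% identity with AC160336.1, a long non-coding RNA on chromosome 14, whose level ran from 112 to 191 CPM in the null and from 78.3 to 434 CPM in the WT tumors, so reads there are uncertain. Its relative Bnip3l, also called NIX (ENSMUSG00000022051; chromosome 14, 66985239 to 67008877), was 82.8, 119, 199, 139.9 and 142 CPM in the null tumors, against 129.9, 259.5, 221 and 178 CPM in the WT tumors. WT 3 and WT 6 were the highest and null 7 the lowest, with overlap between. Bnip3l differed by a log2 fold change of -0.53 (SE 0.28, edgeR adjusted p = 0.341), and -0.33 without WT 3. Higd1a, a small mitochondrial protein of respiratory supercomplexes (ENSMUSG00000038412; chromosome 9, 121848563 to 121858362), was 54.1, 44.5, 48.8, 38.4 and 58.3 CPM in the null tumors, against 45.1, 159, 54.5 and 49.6 CPM in the WT tumors. Apart from WT 3, the WT values lay within the null range. Higd1a differed by a log2 fold change of -0.66 (SE 0.37, edgeR adjusted p = 0.354), and 0.01 without WT 3.

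Ankrd37 and Adm, described because of their level in WT 3 and so chosen after their values were seen, showed the same pattern at low counts. Ankrd37, an ankyrin repeat gene and a HIF target, was 13.5, 6.68, 15.3, 15.6 and 11.8 CPM in the null tumors, against 8.12, 56.7, 8.005 and 12.5 CPM in the WT tumors. Adm, which encodes the vasodilator peptide adrenomedullin, was 14.3, 12.4, 25.1, 35.7 and 21.7 CPM in the null tumors, against 12.4, 67.4, 5.50 and 26.8 CPM in the WT tumors. In both genes WT 3 was the highest tumor by a wide margin and the null values overlapped those of the other WT tumors. Log2 fold changes were -0.76 and -0.36 in all 9 tumors and 0.44 and 0.60 without WT 3 (edgeR adjusted p = 0.489 and 0.77, or 0.603 and 0.633 without it).

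Counted over the whole set, WT 3 was the highest of the 9 tumors for 7 of 12 hypoxia members, or 58.3%, and for 5 of 22 glycolysis members, or 22.7%, beside 3397 of 16169 genes tested. It held at least 2 times the median of the other 8 tumors, on CPM + 1, in 7 of 34 members, or 20.6%, beside 13.0% of all genes. The ratio to that median on CPM was 4.66 for Ankrd37, 4.14 for Bnip3, 3.74 for Adm, 3.24 for Higd1a and 2.48 for Pgk1. WT 3 stood apart in other ways as well. It was read as male from its transcripts, as were null 7 and null 18, and all other tumors as female. Its TMM scaling factor was 0.8353, against 0.9783 to 1.077 in the other tumors. Its summed neutrophil markers were 3208 CPM against at most 705 CPM in any other tumor, its adipocyte markers 271 CPM against at most 118 CPM, and its erythroid markers 4746 CPM against at most 3326 CPM. Of the markers in these lists only Lep was at 0 in every tumor, and their part in the level of the hypoxia members was not tested.

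The promoters of the 4 members in which WT 3 held at least 3 times the median of the other tumors are shown for comparison with Hk2, as RefSeq windows on GRCm38.p6 with the same letters in capitals. They lie at chr8:45999801-46000100 (minus strand), chr7:138909457-138909756 (minus), chr7:110627407-110627706 (plus) and chr9:121857747-121858046 (minus).
Ankrd37: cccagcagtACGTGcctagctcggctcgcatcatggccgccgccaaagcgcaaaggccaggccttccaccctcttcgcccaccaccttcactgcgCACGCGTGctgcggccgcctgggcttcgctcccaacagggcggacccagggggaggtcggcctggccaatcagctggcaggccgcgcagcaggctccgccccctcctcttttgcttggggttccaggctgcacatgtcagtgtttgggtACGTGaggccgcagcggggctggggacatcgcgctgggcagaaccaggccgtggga
Bnip3: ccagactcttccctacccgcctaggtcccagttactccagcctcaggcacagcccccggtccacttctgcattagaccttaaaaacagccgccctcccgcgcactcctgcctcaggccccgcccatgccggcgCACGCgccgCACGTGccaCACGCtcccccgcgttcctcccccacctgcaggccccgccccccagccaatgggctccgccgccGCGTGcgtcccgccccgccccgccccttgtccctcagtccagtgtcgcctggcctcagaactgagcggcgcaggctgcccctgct
Adm: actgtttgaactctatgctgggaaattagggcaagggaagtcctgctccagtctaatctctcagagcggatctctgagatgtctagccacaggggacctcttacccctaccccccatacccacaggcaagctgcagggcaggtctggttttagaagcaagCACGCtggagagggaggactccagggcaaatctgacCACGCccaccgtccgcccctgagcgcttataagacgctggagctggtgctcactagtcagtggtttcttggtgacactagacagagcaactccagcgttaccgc
Higd1a: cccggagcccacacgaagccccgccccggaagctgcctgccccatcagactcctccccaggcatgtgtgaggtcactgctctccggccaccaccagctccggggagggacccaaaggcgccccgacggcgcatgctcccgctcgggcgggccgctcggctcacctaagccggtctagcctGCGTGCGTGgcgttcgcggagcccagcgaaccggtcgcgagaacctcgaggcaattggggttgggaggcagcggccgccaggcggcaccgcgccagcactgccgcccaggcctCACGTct
The windows held 3, 4, 2 and 2 places, overlapping matches counted once, and 1 place in Bnip3 holds CACGTG. RefSeq windows were found for 30 of the 34 members, 44 windows in all, and not for Slc2a3, Epas1, Ndrg1 and Bnip3l. Of the 44, 79.5% held at least 1 place and 59.1% at least 2, beside 43.8% and 17.3% of 32851 windows of the same length. The share with at least 1 was 76.5% for the glycolysis and 90.0% for the hypoxia windows. The base composition of the windows was not matched, and many members are on the list as known HIF targets, so this describes the list and not these tumors.

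The remaining targets were not set apart in WT 3. Vegfa, the main growth factor of vessels, was 505 ± 175 CPM in the null and 376 ± 141 CPM in the WT tumors, with a log2 fold change of 0.43 and an edgeR adjusted p of 0.499, where the log2 fold change without WT 3 was 0.76. Car9, the membrane carbonic anhydrase that acidifies the outside of hypoxic cells, was 114 ± 67.2 CPM in the null and 77.5 ± 20.9 CPM in the WT tumors, with a log2 fold change of 0.56 and an edgeR adjusted p of 0.515. Without null 14 it was 0.32. In Car9 the null tumors split, with tumors 7, 14 and 23 at 118 CPM or more and tumors 15 and 18 at 53.0 CPM or less, around a WT range of 58.8 to 102 CPM. Ndrg1, a stress-induced gene often used as a hypoxia marker, had a log2 fold change of 0.40 and an edgeR adjusted p of 0.535. Leaving out 1 tumor, Ndrg1 ran from 0.22 without null 15 to 0.65 without WT 3, and Vegfa from 0.23 without null 18 to 0.76 without WT 3.

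**Figure D4:**
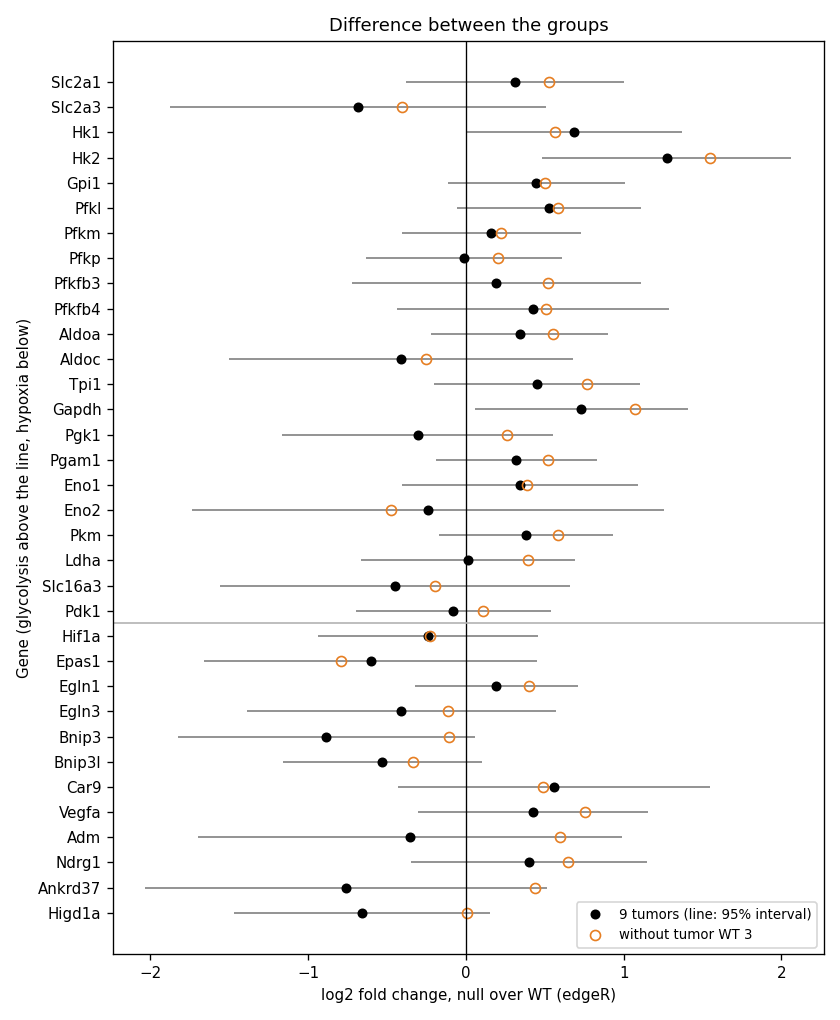
Filled points are log2 fold changes, null over WT, of the 34 members in all 9 tumors with their 95% interval (edgeR), and open orange points the same without tumor WT 3; the grey line parts glycolysis (above) from hypoxia (below). Hk2 lies at 1.27 and 1.54, and Ankrd37 moves across 0, at -0.76 and 0.44.

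Leaving out WT 3 also changed the counts. Then 7 members had an unadjusted p under 0.05, all higher in the null tumors, beside 5.9% of all genes, and 0 were lower beside 6.61%. They were Hk2, Aldoa, Tpi1, Gapdh, Pgam1, Pkm and Vegfa, and none passed after adjustment over all genes (edgeR adjusted p from 0.327 to 0.392). Groups did not overlap, null higher, for 4 members, Hk2, Tpi1, Gapdh and Pkm, beside 3.98% of all genes. This fit rests on 3 WT tumors and was made with the values of WT 3 known. Single tumors weighed on most values. With each tumor left out in turn, the log2 fold change of 31 of 34 members moved by over 1.5 times or across 0 in at least 1 fit, and those of Hk2, Hk1 and Gapdh did not. These had the largest positive log2 fold changes of the members, at 1.27, 0.69 and 0.73, and a large value is less easily moved by such a ratio. Hk1 still differed between the identifier ranges, at 0.13 within TB19 and 1.03 within later identifiers.

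Other genes of these pathways were read from lists of pathway genes. Of 22 other glycolysis isoenzymes and transporters tested 0 passed edgeR or limma-voom, with 1 higher and 5 lower at an unadjusted p under 0.05, where 7.64% and 10.0% of all genes were, and 7 log2 fold changes were positive and 15 negative (median -0.42). DESeq2 called 1 higher, Eno4, a testis enolase that was at most 1.13 CPM in any tumor, and called 1 lower. It called 1.25% of all genes higher and 2.35% lower. Bpgm, which makes the hemoglobin effector 2,3-bisphosphoglycerate in red cells, was 51.8 ± 12.6 CPM in the null and 90.4 ± 32.8 CPM in the WT tumors, with a log2 fold change of -0.80 and an edgeR adjusted p of 0.223. Without WT 3 the log2 fold change of Bpgm was -0.50. Summed erythroid markers were 154 to 3326 CPM in the null and 1234 to 4746 CPM in the WT tumors, and their part in Bpgm was not tested.

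Both genes of the mitochondrial pyruvate carrier, which passes pyruvate from the cytosol to the pyruvate dehydrogenase complex, were lower in every null tumor than in every WT tumor. Mpc1 was 9.74, 23.2, 18.8, 13.8 and 15.1 CPM in the null tumors, against 43.4, 35.1, 29.0 and 30.5 CPM in the WT tumors. Mpc2 was 24.6, 20.3, 24.5, 17.8 and 19.2 CPM in the null tumors, against 34.9, 93.4, 47.4 and 33.5 CPM in the WT tumors. WT 3 was by far the highest for Mpc2 but not for Mpc1. Log2 fold changes were -1.09 (SE 0.27) for Mpc1 and -1.30 (SE 0.31) for Mpc2, and -1.05 and -0.82 without WT 3. Neither passed edgeR (adjusted p = 0.197 and 0.197), while DESeq2 gave adjusted p = 0.0217 and 0.02. These were 2 of 12 genes of the pyruvate dehydrogenase list, of which edgeR and limma-voom called 0, and no other had an unadjusted edgeR p under 0.05. Over all genes, 10.0% were lower at that p, 3.49% were lower without overlap, and DESeq2 called 2.35% lower. The list had 7 positive and 5 negative log2 fold changes, with a median of 0.03. Without WT 3, 5 of 12 were positive and the median was -0.01, so the lean turned. Dlat, the acetyltransferase core of the complex, had a log2 fold change of 0.45 and an edgeR adjusted p of 0.287.

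Among 17 tested components of the HIF pathway edgeR and limma-voom called 0, with 3 higher and 2 lower at an unadjusted p under 0.05 (7.64% and 10.0% of all genes). DESeq2 called 2 higher, where it called 1.25% of all genes higher. Values did not overlap, null higher, for 2 of the 17, beside 3.42% of all genes. Of the 17, 9 log2 fold changes were positive and 8 negative, with a median of 0.14, or 0.05 without WT 3. Hif1an encodes FIH, the asparagine hydroxylase that blocks the transactivation domain of HIF alpha. It was 58.7, 66.4, 43.7, 59.2 and 50.1 CPM in the null tumors, against 37.9, 23.9, 28.1 and 35.0 CPM in the WT tumors, without overlap, and had a log2 fold change of 0.83 (SE 0.21, edgeR adjusted p = 0.201, DESeq2 adjusted p = 0.0157). Hsp90aa1, a chaperone that stabilises HIF alpha among many clients, was 853 ± 177 CPM in the null and 479 ± 76.8 CPM in the WT tumors, also without overlap (log2 fold change 0.83, edgeR adjusted p = 0.208, DESeq2 adjusted p = 0.0402). Cited2, which competes with HIF for the coactivators CBP and p300, was 80.0 ± 23.6 CPM in the null and 43.2 ± 17.5 CPM in the WT tumors, with a log2 fold change of 0.89 and an edgeR adjusted p of 0.227.

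A further list of 47 tested hypoxia-induced genes had 18 positive and 29 negative log2 fold changes, with a median of -0.13, or 0.0015 without WT 3. EdgeR and limma-voom called 0 of them, with 3 higher and 3 lower at an unadjusted p under 0.05 (7.64% and 10.0% of all genes). DESeq2 called 1 in each direction, where it called 1.25% of all genes higher and 2.35% lower. For 2 of the 47 the values did not overlap, null higher, beside 3.42% of all genes. Mxi1, a Myc antagonist, was 78.7 ± 21.2 CPM in the null and 46.1 ± 5.56 CPM in the WT tumors, without overlap (log2 fold change 0.77, edgeR adjusted p = 0.208). Insig2, a brake on sterol synthesis, was 26.2 ± 3.01 CPM in the null and 43.1 ± 10.1 CPM in the WT tumors (log2 fold change -0.71, edgeR adjusted p = 0.208). Cxcr4, a chemokine receptor of leukocytes and some tumor cells, was 16.2 ± 6.18 CPM in the null and 54.3 ± 40.2 CPM in the WT tumors (log2 fold change -1.74, or -1.27 without WT 3, edgeR adjusted p = 0.208). By tumor Cxcr4 was 7.82, 18.7, 16.1, 13.9 and 24.6 CPM in the null tumors, against 17.4, 96.0, 22.4 and 81.3 CPM in the WT tumors. WT 3 and WT 9 were high, and WT 2 and WT 6 lay among the null tumors. Summed macrophage markers were 675, 1654, 1439, 1196 and 2130.2 CPM in the null tumors, against 3619, 2921, 1921 and 3800.4 CPM in the WT tumors. Summed neutrophil markers were 109, 263, 705, 141 and 259.7 CPM in the null tumors, against 334, 3208, 263 and 591 CPM in the WT tumors. WT 2 was high in macrophage markers and low in Cxcr4, while WT 9 had the highest macrophage sum and high Cxcr4. WT 3 was highest in both neutrophil markers and Cxcr4. Null 15, with 705 CPM of neutrophil markers, held 16.1 CPM of Cxcr4. All 10 genes of each list had negative log2 fold changes (medians -0.99 and -1.53, the neutrophil one -0.20 without WT 3), and their part in Cxcr4 was not tested.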

How the data were processed

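Polyadenylated RNA from 9 frozen whole tumors was sequenced, and the authors deposited 1 table with a column per tumor. Its values are estimated counts per gene, not normalised, made with Salmon 1.4.0 per the submitters' processing notes, which also name DESeq 2 and the builds GRCm38 and mm10. The annotation release and the strandedness of the library are not given in the sources used here. Reads of overlapping genes on opposite strands may not be told apart. Reads of near-identical genes are shared out by Salmon's model.

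Estimated counts were rounded. Of 54453 rows, 54200 had a symbol in GENCODE M21 (GRCm38), and 23854 were at 0 in every tumor. After edgeR's filterByExpr (minimum count 10, minimum total 15) 16169 genes were tested with edgeR 4.0.16 (TMM, quasi-likelihood test, Benjamini-Hochberg adjustment over all genes, threshold 0.05) in R 4.3.3, grouped by the labelled genotype with no covariate. Standard errors are the log2 fold change over the square root of F. CPM uses the TMM-scaled library, and per-kilobase levels use union exon length. The common biological coefficient of variation was 0.494, so spread between tumors rather than depth limited precision. Members and lists were chosen with earlier results of these data known, and supplied no list test. Tumors were described one by one for members that were called, did not overlap or had an unadjusted p under 0.05, for the 10 with the smallest p and for both HIF alpha subunits. From each other list the 3 genes with the smallest p are named, except 1 that is not reported here.

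Near-identical copies were found with BLASTN as transcripts with at least 95% identity over at least 500 bases. Alternatives were RLE, upper quartile and no scaling, no and a strict filter (1 CPM in 4 tumors), DESeq2 1.42.0, limma-voom (limma 3.58.1), a threshold of 0.1, sex (not in the labels, read from Xist against Y-linked transcripts) or tumor identifier range as covariate, the difference within each range, and tumors left out. Summing copies was added after seeing the data.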

Additional observations from a re-analysis of the deposited data

Results flagged for a closer look

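Of 104 groups examined, 2 for each named gene, 5 held a tumor whose gap to its nearest neighbor, relative to the range of the group on log2(CPM + 1), passed Dixon's 95% limit, where chance gives about 1 in 20. Higd1a was 159.5 CPM in WT 3, where the other WT tumors held 45.1 to 54.5 CPM. Slc2a3 was 1.01 CPM in null 7, against 5.31 to 8.25 CPM in the other null tumors. Hk1 was 120.8 CPM in null 15, against 188 to 203 CPM in the other null tumors. Null 7 also stood apart for Dlat, at 64.7 CPM against 46.2 to 49.0 CPM in the other null tumors, and for Insig2, at 21.1 CPM against 26.4 to 28.6 CPM. The cause was not tested for any of these.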

How the results depend on the processing

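Of the 34 members 0 were called by edgeR under any scaling, filter, covariate or left-out tumor, or with a threshold of 0.1, and by limma-voom, and DESeq2 called 1. Over all genes, 7 were called with no filter, 642 by DESeq2, 1 with sex, read from transcripts, as covariate, and 0 with identifier range as covariate, without both WT 3 and null 7, and within either identifier range (WT 2 alone stands for WT within TB19, and is assumed to vary like the null tumors). With 1 tumor left out the calls were 0 to 1: 1 without WT 6 and 0 without any other. Members at an unadjusted p under 0.05 were 1 higher and 1 lower with upper quartile scaling (5.94% and 12.6% of all genes), 1 higher with identifier range as covariate (4.77%), 5 higher without both WT 3 and null 7 (4.75%), and 1 higher and 1 lower within TB19 (1.87% and 3.26%). With 1 tumor left out, 1 to 7 were higher, 7 without WT 3 (5.9% of all genes) and 1 without null 7, 14, 18 or 23 or WT 6, and 0 to 3 lower, 3 of them without WT 2 (11.7%). Non-overlapping members were 5 without both tumors (11.1% of all genes, in either direction), 16 within TB19 (55.1%), 5 within later identifiers (37%), 2 with copies summed (6.87%), and 1 to 4 with 1 tumor left out, where 4 was without WT 3 (9.18%). The hypoxia median was 0.22 without both tumors, 0.41 within TB19, and -0.57 to 0.20 with 1 tumor left out, positive only without WT 3. The glycolysis median was 0.16 to 0.50 with 1 left out.

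Log2 fold changes that changed sign, none of them past the threshold, were, with RLE scaling, Ldha (-0.0259); with upper quartile scaling, Ldha (-0.11); with no scaling, Pfkp (0.0913) and Pdk1 (0.0204); with no filter, Pfkp (0.0391); with the strict filter, Ldha (-0.00687); by DESeq2, Ldha (-0.00996); by limma-voom, Pfkp (0.0216) and Adm (0.28); with identifier range as covariate, Pfkp (0.0683), Pdk1 (0.0613) and Adm (0.0427). Without both WT 3 and null 7 they were Pfkp (0.32), Pgk1 (0.17), Slc16a3 (0.0453), Egln3 (0.0376), Adm (0.72) and Ankrd37 (0.41). Within TB19 they were Pfkfb3 (-0.0293), Aldoc (0.0523), Pgk1 (1.06), Eno1 (-0.00853), Slc16a3 (0.27), Pdk1 (0.72), Hif1a (0.00625), Bnip3 (0.42), Bnip3l (0.0975), Adm (0.53), Ankrd37 (0.59) and Higd1a (0.17), and within later identifiers Pfkp (0.23), Pfkfb4 (-0.11), Eno2 (0.39), Ldha (-0.35), Epas1 (0.27), Egln3 (0.0721) and Pck2 (-0.0809). With 1 tumor left out, signs changed for Adm (-0.70 to 0.60), Ankrd37 (-1.04 to 0.44), Eno2 (-1.05 to 0.0332), Hif1a (-0.37 to 0.0692), Higd1a (-0.84 to 0.00999), Ldha (-0.17 to 0.39), Pdk1 (-0.25 to 0.11), Pfkfb3 (-0.0667 to 0.52), Pfkfb4 (-0.0165 to 0.56), Pfkp (-0.22 to 0.20) and Pgk1 (-0.56 to 0.26). The cause was not tested. Eno4, which is no member, was below the strict filter and was not tested without null 15, 18 or 23. Without length correction, 17 of 34 mean isoenzyme shares moved by more than their SD, and Bnip3 was 43.8% and 44.6% of its pair in null and WT tumors in place of 56.8% and 57.2%. No paired analysis was possible because the groups share no tumor number. Counting error adds to the spread between tumors mainly in low genes such as Eno2, Slc2a3, Ankrd37 and Adm.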

Other observations

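Regulators of glucose use outside the HIF pathway were read from 2 further lists. Of 14 tested Myc and mTOR regulators, 9 had positive log2 fold changes with a median of 0.23. EdgeR, limma-voom and DESeq2 called 0 of them, and at an unadjusted edgeR p under 0.05, 4 were higher and 1 was lower in the null tumors (7.64% and 10.0% of all genes). For 1 of the 14 the values did not overlap, null higher, beside 3.42% of all genes. Rptor, the scaffold subunit of mTOR complex 1, was 56.7, 53.3, 62.4, 73.9 and 69.5 CPM in the null tumors, against 43.7, 25.5, 31.9 and 50.5 CPM in the WT tumors, without overlap (log2 fold change 0.74, SE 0.23, edgeR adjusted p = 0.219). Mtor, the kinase itself, was 58.5 ± 14.6 CPM in the null and 32.8 ± 15.2 CPM in the WT tumors (log2 fold change 0.84, edgeR adjusted p = 0.245), and Tsc2, which restrains the complex, was 73.6 ± 5.12 CPM in the null and 47.0 ± 17.4 CPM in the WT tumors (log2 fold change 0.65, edgeR adjusted p = 0.233). Activator and restraint thus had differences of the same sign.

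Of 6 tested gluconeogenesis genes 3 had positive and 3 negative log2 fold changes. EdgeR, limma-voom and DESeq2 called 0, with 0 higher and 1 lower at an unadjusted edgeR p under 0.05 (7.64% and 10.0% of all genes). That 1 was Fbp2, the muscle fructose bisphosphatase, at 8.75 ± 4.66 CPM in the null and 23.3 ± 13.2 CPM in the WT tumors (log2 fold change -1.41, edgeR adjusted p = 0.233). Pck2, the mitochondrial phosphoenolpyruvate carboxykinase, was 219 CPM in null 7 and at most 101 CPM in the other null tumors, beside 54.0 to 79.7 CPM in the WT tumors (log2 fold change 0.70, or 0.22 without null 7, edgeR adjusted p = 0.362). G6pc3, a ubiquitous glucose-6-phosphatase, was 43.7 ± 10.8 CPM in the null and 32.2 ± 5.06 CPM in the WT tumors (log2 fold change 0.44, edgeR adjusted p = 0.337).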
